A study of Mus musculus with 7 samples.

Results

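The 9 genes described here encode components and regulators of complement in the mouse mammary gland: C1qa, C1qb and C1qc, which give the 3 chains of C1q, the activation components C3, C4b and Cfb, and the regulators Cd55, Cd59a and Serping1. They were taken by symbol, and each had 1 of the 27998 rows of a matrix of raw single-cell counts, of which 19039 held a count. Glands came from nulliparous female mice at diestrus with FVB, 129 and C57BL/6J in their mixed background, either young (3 to 4 months, n = 3, mice A, B and C) or aged (13 to 14 months, n = 4, mice A, B, C and D). The #4 abdominal glands were dissociated after the lymph nodes had been removed, a preparation that loses adipocytes, and 13684 cells were captured by 10x Chromium 3′ v2 chemistry, in which each captured mRNA molecule is tagged with a unique molecular identifier (UMI). The submitters named 13 cell types. The epithelial ones are myoepithelial cells, luminal hormone-sensing (HS) cells, luminal secretory alveolar (AV) cells and HS-AV cells, which carry markers of both luminal types, and the others are stromal and immune cells, among them Ma macrophages (Mrc1, Cd209f, Cd163) and Mb macrophages (Mmp12, Mmp13, Spic). The question was in which cells each complement gene was found, and in which of them its level differed between young and aged mice.

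Complement is a cascade of plasma and tissue proteins that coats targets for uptake and can end in a membrane pore. In the classical pathway C1q recognizes immune complexes, dying cells and other surfaces, and its proteases C1r and C1s then cleave C4 and C2, whereas the alternative pathway uses factor B (Cfb) and factor D (Cfd), and both pathways meet at the cleavage of C3. Host cells are protected by regulators such as CD55, which speeds the decay of the C3-cleaving enzymes, CD59, which blocks assembly of the pore, and the C1 inhibitor made from Serping1, which inactivates C1r and C1s.

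C1qa, C1qb and C1qc lie side by side on chromosome 4 (GENCODE vM21 on GRCm38, minus strand, C1qb at 4:136880129-136886187, C1qc at 4:136889804-136893065 and C1qa at 4:136895917-136898803), with gaps of 3616 bp between C1qb and C1qc and 2851 bp between C1qc and C1qa. C3 (17:57203970-57228136), C4b (17:34728380-34743882) and Cfb (17:34856374-34862518) are on the minus strand of chromosome 17. Cd55 is on chromosome 1 (130439027-130462744, minus strand), and Cd59a (104095801-104115354, plus strand) and Serping1 (84765387-84775444, minus strand) are on chromosome 2. Some of these genes have close copies. Cd59b lies 4613 bp from Cd59a, Cd55b lies 16017 bp from Cd55, C4a lies 65209 bp from C4b and had no row in the matrix, and C2 ends 85 bp before the start of Cfb, so reads that could belong to either gene of such a pair make its level uncertain.

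RefSeq start regions (GRCm38.p6, 250 bases before to 50 after the start, written 5′ to 3′ on the strand of the gene) were at hand for 5 of the 9 genes, C1qb, C1qc, C3, Cd55 and Cd59a. The windows of 4 of them are shown because their genes carry the patterns described below, C1qb (chr4:136886151-136886450, minus strand) and C1qc (chr4:136892865-136893164, minus strand) because they were high in both macrophage types together, and C3 (chr17:57228087-57228386, minus strand) and Cd59a (chr2:104095551-104095850, plus strand) because their levels differed with age in opposite directions. Capitals mark matches, on either strand, to any of 6 short motifs.
C1qb: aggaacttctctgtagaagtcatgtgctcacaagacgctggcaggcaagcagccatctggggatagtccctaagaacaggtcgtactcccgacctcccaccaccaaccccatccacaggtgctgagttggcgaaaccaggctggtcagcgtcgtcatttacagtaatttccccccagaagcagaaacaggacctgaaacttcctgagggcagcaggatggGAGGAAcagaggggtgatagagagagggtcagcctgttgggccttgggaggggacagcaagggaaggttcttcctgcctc
C1qc: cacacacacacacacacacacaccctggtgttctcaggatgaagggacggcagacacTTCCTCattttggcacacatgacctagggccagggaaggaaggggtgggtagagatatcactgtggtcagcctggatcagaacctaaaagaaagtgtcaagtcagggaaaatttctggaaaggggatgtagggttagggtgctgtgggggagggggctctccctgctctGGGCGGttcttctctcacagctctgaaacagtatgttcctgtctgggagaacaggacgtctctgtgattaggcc
C3: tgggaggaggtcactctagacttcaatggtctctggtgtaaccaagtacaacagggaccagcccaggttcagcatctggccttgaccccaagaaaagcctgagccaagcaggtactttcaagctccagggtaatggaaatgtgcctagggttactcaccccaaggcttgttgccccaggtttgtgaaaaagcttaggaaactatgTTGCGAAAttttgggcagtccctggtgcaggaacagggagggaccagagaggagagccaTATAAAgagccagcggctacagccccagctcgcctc
Cd59a: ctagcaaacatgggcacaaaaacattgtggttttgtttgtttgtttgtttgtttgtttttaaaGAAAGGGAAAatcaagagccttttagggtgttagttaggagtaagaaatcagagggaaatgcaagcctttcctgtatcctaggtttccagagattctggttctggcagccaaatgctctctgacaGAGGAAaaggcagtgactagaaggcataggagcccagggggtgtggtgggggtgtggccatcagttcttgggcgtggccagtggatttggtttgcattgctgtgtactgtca
The letters GAGGAA, the core bound by PU.1 and other ETS factors, were found in C1qb (bases -30 to -25 from the start), in C1qc (-193 to -188, on the opposite strand) and in Cd59a (-62 to -57), and 28.3% of the 32851 promoters of the RefSeq table held them on either strand. The C3 window held TTGCNNAA, a C/EBP type motif, at -45 to -38 (10.8% of promoters) and TATAAA at 14 to 19 (13.6%). The Cd59a window held GAAA, 2 bases of any kind and GAAA, an interferon response type motif, at -187 to -178 (3.44%). A GC box, GGGCGG, was found at -24 to -19 in C1qc and, on the opposite strand, at -77 to -72 and -7 to -2 in Cd55 (35.7% of promoters), and GGG, 2 bases of any kind and TTTCC, an NF-kB type motif (1.63%), was found in none of the 5 windows. No matches overlapped, and they describe letters in these windows only.

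Total UMIs per mouse ranged from 6652599 to 16999625 over 1264 to 2865 cells, and the median cell of a mouse held 4758.5 to 7109.5 UMIs. Of 63 marker genes of the named cell types, 61 were highest in a type they mark, and the exceptions were Cd3g, highest in NK cells, and Cd4, highest in Mb macrophages. Among 13583 cell barcodes, 101 occurred in more than 1 library, and 57 of these were shared between a young and an aged mouse. Barcodes were written in 2 parts of 8 bases in young mice and 1 part of 16 bases in aged mice, and 2 symbols with duplicate rows and at least 100 UMIs on each, Atn1 and Schip1, were counted on one row in young and on the other in aged mice, as was Gbp6 with 106 and 31 UMIs. None of the 9 genes had a duplicate row. Because the files of the age groups differ in this way, age cannot be told apart from library processing, and this holds for each comparison of young with aged mice below.

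Levels are given as CPM, the UMIs of a gene in every 1000000 UMIs of all cells of 1 type in 1 mouse, for mice with at least 3 cells of the type. UMIs come from the 3′ ends of transcripts and are not divided by gene length, so levels are compared within a gene.

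**Figure D1:**
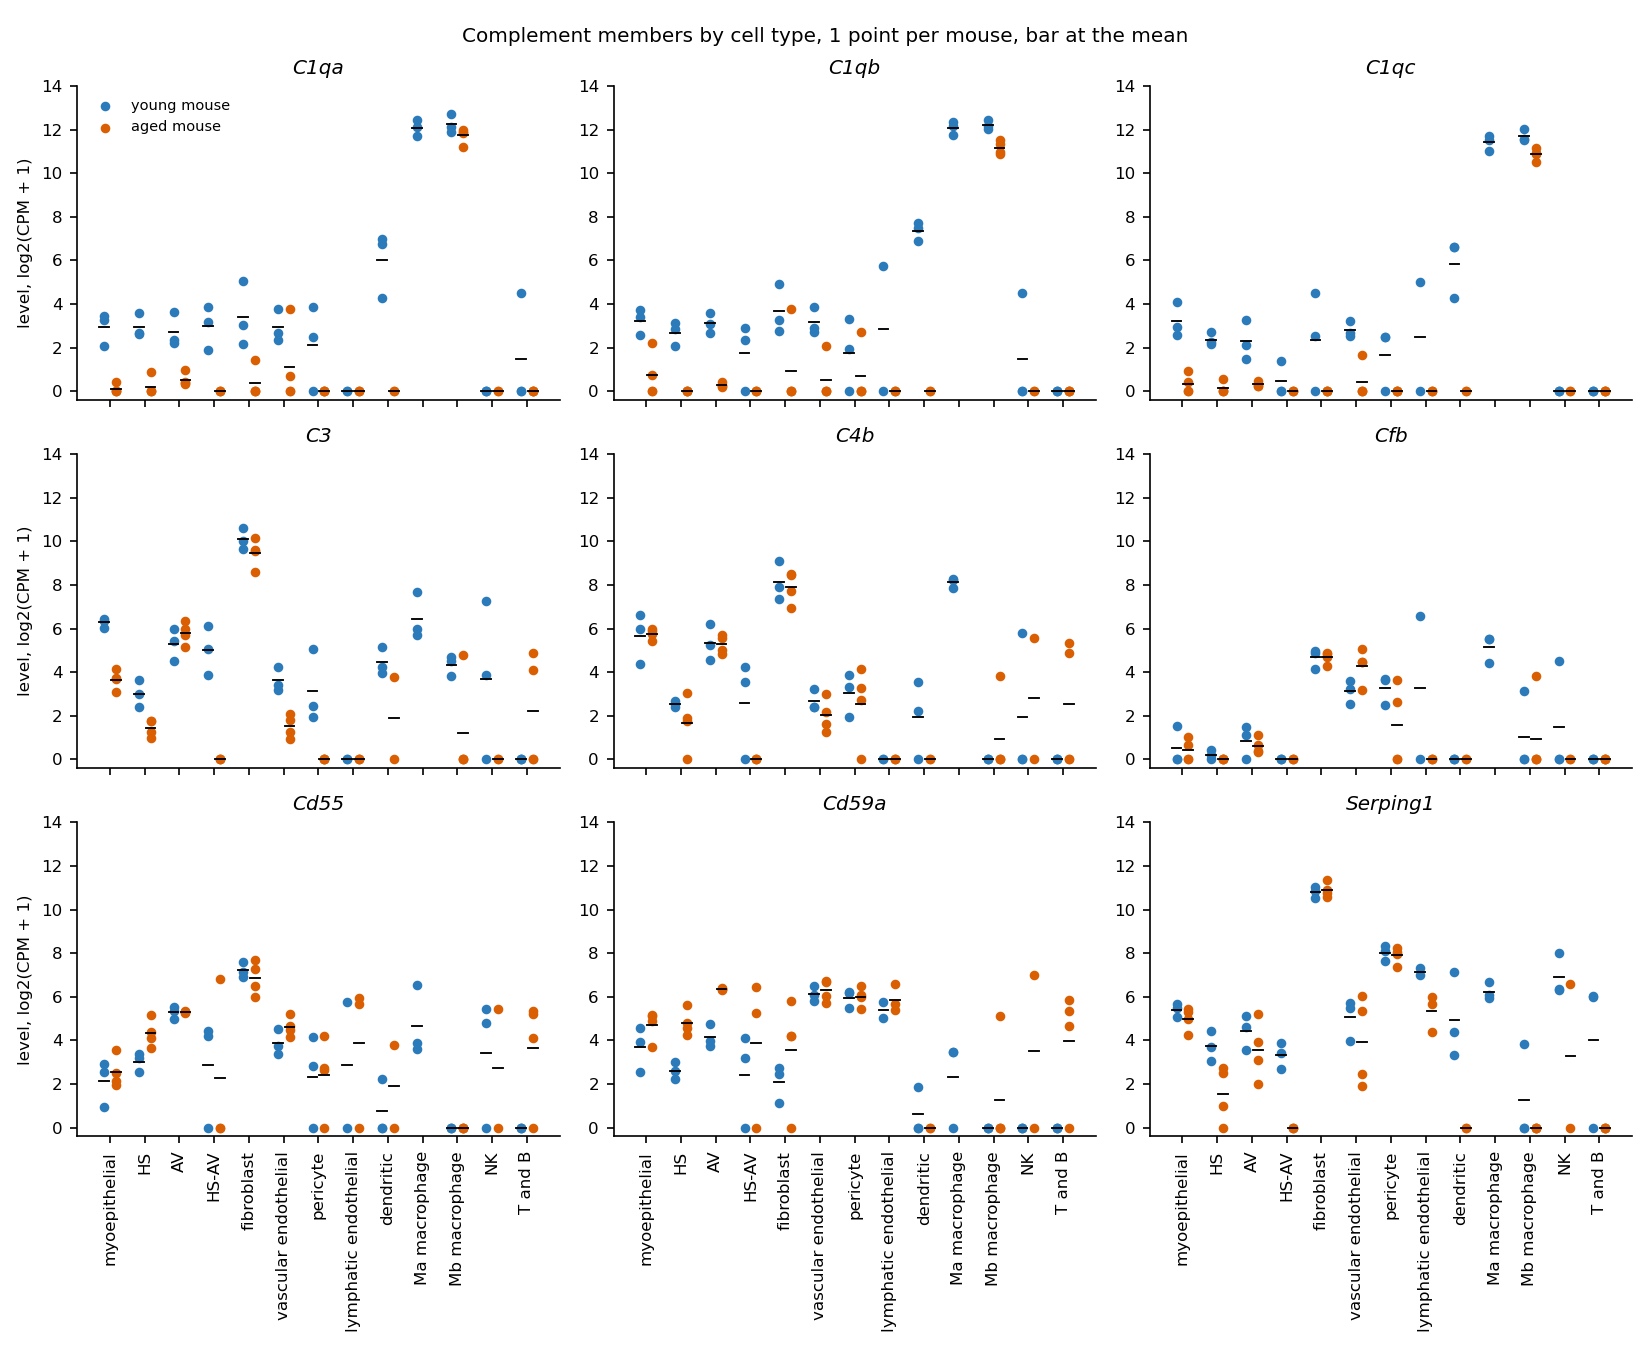
Levels of the 9 complement genes, 1 panel each, in 13 cell types (horizontal axis) as log2(CPM + 1) on the vertical axis. Each point is 1 mouse with at least 3 cells of the type (young in blue, aged in orange) and each bar is the mean over mice. The C1q chains are high in the macrophage columns, C3, C4b, Cd55 and Serping1 in fibroblasts, and Cd59a in vascular endothelial cells and pericytes.

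C1q RNA was highest in macrophages. C1qa stood at 5492, 4494 and 3320 CPM in Ma macrophages of young mice A, B and C, and at 6731, 4443 and 3798 CPM in their Mb macrophages. Aged glands held 1 Ma cell in all, and Mb macrophages of aged mice A to D had 3838, 2337, 3679 and 4100 CPM of C1qa. C1qb averaged 4416 ± 877 CPM (SD, n = 3) in Ma and 3394 ± 1407 CPM (SD, n = 7) in Mb macrophages, and C1qc averaged 2789 ± 667 CPM (SD, n = 3) and 2537 ± 932 CPM (SD, n = 7). The Ma means are of young mice only, and Mb macrophages of young mice averaged 4784 CPM of C1qb and 3392 CPM of C1qc. The next type in the order was dendritic cells, at 50.4 ± 61.5 CPM of C1qa, 100.9 ± 97.8 CPM of C1qb and 42.3 ± 50.2 CPM of C1qc (SD, n = 5).

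All 3 chains were detected together in 121 of 122 Ma cells (99.2%) and 145 of 146 Mb cells (99.3%). Their UMIs were divided as 38.3% C1qa, 38.0% C1qb and 23.7% C1qc in Ma macrophages and as 40.2%, 34.2% and 25.5% in Mb macrophages. Outside macrophages a UMI of any chain was found in 1.76% of AV cells and 6.42% of fibroblasts (median depths 6632 and 4414 UMIs, against 4347 in Ma and 5343 in Mb cells), and in 14.2% of dendritic cells. The chains had similar shares in AV cells and fibroblasts, with 36.6%, 37.4% and 26.0% of the C1q UMIs of AV cells and 37.7%, 38.0% and 24.3% of those of fibroblasts. Where these UMIs came from was not tested. All 3 chains were seen together in 9 of 226 dendritic cells (3.98%), and dendritic cells of the aged mice with at least 3 such cells (A and B) had 0 UMIs of each chain. These were only 14 and 5 cells, with 77772 and 31973 UMIs, so low levels could be missed. The lowest young mouse had 18.1 CPM of C1qa in dendritic cells, and an age difference was not tested there.

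C3, the central component, was highest in fibroblasts, at 807, 1570 and 1030 CPM in young mice A to C and 779, 385, 1152 and 750 CPM in aged mice A to D. Ma macrophages of the young mice followed with 50.6, 201 and 61.3 CPM, and then AV cells with 50.3 ± 19.5 CPM (SD, n = 7) and myoepithelial cells with 40.0 ± 35.6 CPM. HS cells were near the bottom of the order at 4.27 ± 3.81 CPM. In 59.6% of fibroblasts thinned to 2000 UMIs a C3 UMI remained (68.4% without thinning, median depth 4414 UMIs), against 9.32% of AV cells (25.0%, 6632 UMIs), 1.40% of HS cells (3.98%, 7277 UMIs) and 1.15% of vascular endothelial cells (2.69%, 4907 UMIs).

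C4b, the classical pathway component cleaved by C1s, was at similar levels in fibroblasts (284 ± 144 CPM, SD, n = 7) and in Ma macrophages (299, 235 and 310 CPM in young mice A to C). Myoepithelial cells (56.4 ± 23.8 CPM) and AV cells (41.1 ± 16.99 CPM) came next, and HS cells had 3.81 ± 2.36 CPM. The macrophage types stood apart, since 61.5% of Ma cells and 0.685% of Mb cells held a C4b UMI.

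Cfb, the alternative pathway protease, was lower throughout. Its highest means were 36.9 ± 14.3 CPM in Ma macrophages (45.6, 44.7 and 20.4 CPM, n = 3) and 25.2 ± 5.48 CPM in fibroblasts (SD, n = 7). Its next means were 18.8 ± 42.0 CPM in lymphatic endothelial cells (SD, n = 5, from 3 UMIs) and 15.3 ± 10.0 CPM in vascular endothelial cells. In epithelium it was nearly undetected, with 18 of 4820 AV cells, 5 of 1670 myoepithelial cells, 2 of 2138 HS cells and 0 of 273 HS-AV cells holding a UMI.

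Of the regulators, Serping1 had its highest level in fibroblasts at 1883 ± 382 CPM (SD, n = 7), between 1494 and 2595 CPM in every mouse, and pericytes followed at 252 ± 54.8 CPM. A Serping1 UMI was present in 97.3% of fibroblasts and 56.2% of pericytes, against 5.75% of HS cells. Cd55 was highest in fibroblasts (138 ± 51.3 CPM), followed by Ma macrophages (91.1, 11.2 and 13.6 CPM) and AV cells (38.6 ± 4.305 CPM). No Cd55 UMI was seen in 146 Mb macrophages with 845311 UMIs, which allows up to 3.55 CPM (3 counts, counting error only). Cd59a had another order, with vascular endothelial cells at 76.6 ± 22.5 CPM, pericytes at 64.3 ± 16.7 CPM, lymphatic endothelial cells at 53.9 ± 24.6 CPM (SD, n = 5) and AV cells at 53.7 ± 34.0 CPM, while fibroblasts were at 14.4 ± 19.2 CPM. In vascular endothelial cells every mouse lay between 51.4 and 106 CPM, and the 7 values of AV cells spread from 12.6 to 83.6 CPM.

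Neighbors in these orders were compared over mice by an exact two-sided sign-flip permutation test of log2(CPM + 1), and after Benjamini-Hochberg adjustment over 108 pairs 0 differed. The smallest unadjusted p was 0.016 (adjusted p = 0.71) for Serping1 in fibroblasts over pericytes, which held in 7 of 7 mice and is the smallest that 7 mice allow, so single steps of an order cannot reach the threshold here.

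In fibroblasts several of the genes were found in the same cells. Of 1993 fibroblasts, 67.8% held UMIs of both C3 and Serping1, 37.9% of C3 and C4b, 32.3% of C3 and Cd55 and 8.53% of C3 and Cfb, whereas in 4820 AV cells these shares were 2.18%, 5.996%, 5.91% and 0.145%. Over 80 sums of mouse and cell type, log2(CPM + 1) of the C1q chains correlated at Pearson r = 0.94 to 0.96 with each other, and that of C3 and C4b at r = 0.73, while C1qa and Cd59a had r = -0.42 (a description, since sums of 1 mouse share a library). The genes most like each member by the same measure, among 11615 genes, were Ms4a7 (r = 0.92), Adgre1 (0.92) and Csf1r (0.91) for C1qa, Adgre1 (0.91), Ms4a7 (0.90) and Csf1r (0.89) for C1qb, and Ms4a7 (0.93), Adgre1 (0.93) and C3ar1 (0.93) for C1qc. For the activation components they were Has1, Col14a1 and Lum (r = 0.80, 0.80 and 0.80) for C3, Sfrp2, Ptx3 and Osr1 (0.83, 0.81 and 0.77) for C4b, and Igf1, Fbn1 and Gda (0.75, 0.75 and 0.73) for Cfb. For the regulators they were Copz2, Krt10 and Urgcp (0.63, 0.62 and 0.62) for Cd55, Hspb1, Tm4sf1 and Foxc1 (0.72, 0.71 and 0.70) for Cd59a, and Fstl1, Itm2a and Col6a2 (0.84, 0.82 and 0.82) for Serping1.

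Cell types of the same mice were then compared with edgeR's quasi-likelihood test on the summed counts, with the mouse as a block, and calls needed p under 0.05 after Benjamini-Hochberg adjustment over all genes tested and a 1.5-fold or larger difference. Within the luminal layer, AV cells had more of C3, C4b, Cd55, Cd59a and Serping1 than HS cells. These 5 members passed the filter on low counts and all 5 were called, in a comparison that called 42.5% of 8599 genes. C3 was 3.43 ± 0.35 higher on the log2 scale (± SE, adjusted p = 1.77e-06), C4b 3.47 ± 0.31 (5.71e-07), Cd59a 1.84 ± 0.17 (5.80e-07), Cd55 1.73 ± 0.25 (4.33e-05) and Serping1 1.54 ± 0.38 (0.0038), each in 7 of 7 mice. AV cells also exceeded myoepithelial cells in Cd55 by 3.25 ± 0.28 (adjusted p = 7.42e-07 by edgeR, 7 of 7 mice) and in Cd59a by 1.42 ± 0.29 (0.0011, 6 of 7 mice), and had less Serping1 (log2 difference -1.10 ± 0.39, adjusted p = 0.027, 6 of 7 mice). C3 (0.95 ± 0.48, adjusted p = 0.11) and C4b (-0.40 ± 0.18, adjusted p = 0.083) did not pass, so 3 of 5 members tested were called where 48.2% of 7820 genes were.

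Fibroblasts exceeded pericytes in C3 by 7.45 ± 0.42 on the log2 scale, in C4b by 5.24 ± 0.34, in Cd55 by 4.34 ± 0.32 and in Serping1 by 3.07 ± 0.16, and the values did not overlap between the types in any of the 4. These were the 4 members tested (44.1% of 2408 genes called), with adjusted p of at most 2.01e-07 by edgeR. Against vascular endothelial cells, fibroblasts were higher in C3 (7.39 ± 0.34), Serping1 (6.20 ± 0.54), C4b (5.95 ± 0.30), Cd55 (2.87 ± 0.33) and, in 5 of 7 mice, Cfb (1.05 ± 0.33, adjusted p = 0.016), and lower in Cd59a (-3.18 ± 0.40, adjusted p = 1.18e-05, 7 of 7 mice). All 6 members tested were called, with 44.3% of 6797 genes called.

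Mb macrophages exceeded dendritic cells of the same 5 mice in C1qa by 6.52 ± 0.56, in C1qc by 6.19 ± 0.53 and in C1qb by 5.54 ± 0.51 on the log2 scale (adjusted p at most 9.74e-05 by edgeR), 3 of 3 members tested in a comparison that called 30% of 880 genes. Between the macrophage types of young mice, C4b differed. Ma macrophages held 171 C4b UMIs (294 CPM pooled over the 3 mice) and Mb macrophages 0 of 688811 UMIs, a limit of 4.36 CPM (3 counts over the group), so the Ma level was at least 67.6-fold higher (adjusted p = 1.34e-04 by edgeR, 3 of 3 mice). The C1q chains were not called there, with log2 differences of Ma from Mb of -0.24 ± 0.17 for C1qa, -0.20 ± 0.18 for C1qb and -0.37 ± 0.19 for C1qc (adjusted p = 0.35, 0.44 and 0.18). In all, 1 of 4 members tested was called against 29.2% of 1672 genes, and 2 without young mouse B (Serping1 added).

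With age the genes did not move together. Summed over all cells of a mouse, C1qa, C1qb, C1qc, C3 and Serping1 were lower in aged glands and Cd59a was higher, 6 of 9 members called in a comparison that called 32.7% of 12983 genes. C1qa was at 395, 117 and 88.9 CPM in young mice A to C and at 31.2, 4.35, 9.503 and 9.60 CPM in aged mice A to D, without overlap (log2 change -3.53 ± 0.71, adjusted p = 0.0065 by edgeR), and C1qb (-4.03 ± 0.65, 0.0030) and C1qc (-3.75 ± 0.69, 0.0047) did likewise. Without young mouse A these changes were -2.62, -3.31 and -2.91 for C1qa, C1qb and C1qc, and without aged mouse A they were -4.32, -4.80 and -4.60, and all stayed called. Serping1 changed by -2.54 ± 0.49 (adjusted p = 0.0056), C3 by -1.91 ± 0.38 (0.0064) and Cd59a by 2.20 ± 0.23 (7.71e-04). Cfb (-0.92 ± 0.39, adjusted p = 0.093), C4b (-0.59 ± 0.26, 0.10) and Cd55 (-0.09 ± 0.19, 0.72) did not pass. In sums over the whole gland, fewer cells of a type and less RNA per cell cannot be told apart. Macrophages made up 2.76% to 5.80% of the cells of young mice and 0.194% to 0.607% of those of aged mice, and fibroblasts 14.6% to 36.1% and 1.09% to 7.34%. The part of these shares in the whole-gland differences was not tested.

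**Figure D2:**
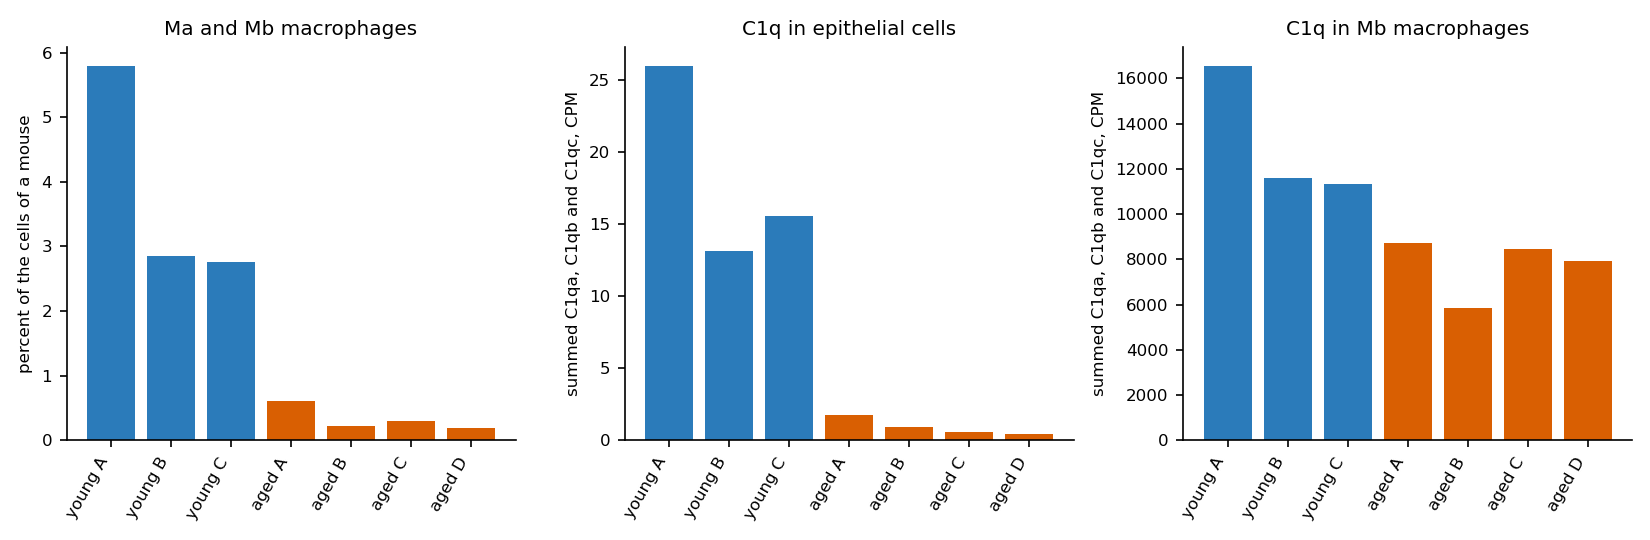
Macrophages as a percent of all cells (left), CPM of C1q (sum of the 3 chains) in epithelial cells (middle) and in Mb macrophages (right), 1 bar for each of 7 mice. Epithelial cells had 13.2 to 26.0 CPM of C1q in young and 0.453 to 1.78 CPM in aged mice, where macrophages were also fewer, while Mb macrophages had 11339 to 16564 CPM in young and 5843 to 8712 CPM in aged mice.

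Within Mb macrophages the C1q chains did not pass the test with age. C1qb was at 5611, 4222 and 4520 CPM in young mice A to C and at 2581, 2037, 2904 and 1886 CPM in aged mice A to D, so every aged value lay below every young one, and the log2 change was -0.74 ± 0.22 (adjusted p = 0.13 by edgeR). C1qc did not overlap either (4222, 2932 and 3021 CPM against 2293, 1469, 1897 and 1927 CPM, log2 change -0.55 ± 0.22, adjusted p = 0.21), and C1qa overlapped (-0.22 ± 0.27, adjusted p = 0.71). By edgeR 0 of 3 members tested were called (1.16% of 859 genes called), 2 had an unadjusted p under 0.05, and DESeq2 called 0. Aged mice A to D contributed 9, 6, 4 and 3 of these cells, which limits what could be detected.

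In AV cells, C1qa, C1qb and C1qc were called lower in aged mice and Cd59a higher, 4 of 8 members tested with 6.16% of 11012 genes called. The C1q chains passed the filter on low counts only through the young mice, where they were higher. Their calls therefore depend on the filter, and the count of members cannot be set against that share. The C1q levels were low in both groups. C1qb was at 10.96, 5.40 and 7.44 CPM in young and 0.329, 0.199, 0.136 and 0.161 CPM in aged mice (log2 change -4.93 ± 0.47, adjusted p = 5.90e-04 by edgeR), and C1qc changed by -3.86 ± 0.60 (0.0053) and C1qa by -3.58 ± 0.60 (0.0074). Without young mouse A, C1qa (-2.84, adjusted p = 0.077) and C1qc (-3.11, 0.065) were no longer called and 2 members remained. Low C1q in aged mice was not particular to AV cells. The aged mean of each chain was higher in 0 of 9 cell types with at least 3 mice of each age. Mean C1qa was 7.19 CPM in young and 0.0861 CPM in aged myoepithelial cells, and 14.4 and 0.431 CPM in fibroblasts. Only in AV cells and Mb macrophages did the chains pass the filter. Macrophage markers in the same AV cells moved alike, since 8 of 10 had a lower mean in aged mice and their summed level was 7.19 to 10.3 CPM in young and 0.955 to 2.79 CPM in aged mice, with Fcgr3, Mrc1 and Spic at 0 in every aged mouse and Mmp13 at 0 in every young mouse. Their part in the result was not tested.

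Cd59a, the inhibitor of the membrane pore, was higher in aged AV and HS cells. In AV cells it stood at 26.0, 12.6 and 14.5 CPM in young mice A to C and at 81.1, 83.6, 79.9 and 78.0 CPM in aged mice A to D, without overlap (log2 change 2.41 ± 0.24, adjusted p = 6.84e-04 by edgeR). In HS cells it was at 6.92, 3.71 and 5.07 CPM in young and 22.8, 18.01, 47.6 and 27.2 CPM in aged mice, again without overlap (2.47 ± 0.35, adjusted p = 0.0039). The mean CPM was higher in aged mice in 9 of the 9 cell types with at least 3 mice of each age, but values of the age groups overlapped in 7 of them. It was not called in myoepithelial cells (0.92 ± 0.43, adjusted p = 0.12), vascular endothelial cells (0.58 ± 0.25, 0.094) or pericytes (0.36 ± 0.33, 0.52). Cd59b, its close copy, had 4.04, 3.597 and 5.79 CPM in young and 3.46, 7.48, 6.95 and 4.99 CPM in aged AV cells.

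AV cells outnumbered all other types in aged mice, so AV markers (Mfge8, Trf, Csn3, Wfdc18, Elf5 and Ltf) were counted beside Cd59a. In HS cells their summed level was 452 to 895 CPM in young and 316 to 1078 CPM in aged mice, with 4 of 6 not lower in aged mice and 0 of them at 0 in either group. For each 100 AV marker UMIs there were 0.0952 Cd59a UMIs in young and 0.363 in aged AV cells, against 0.697 in young and 4.77 in aged HS cells. Their part in the Cd59a difference was not tested.

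**Figure D3:**
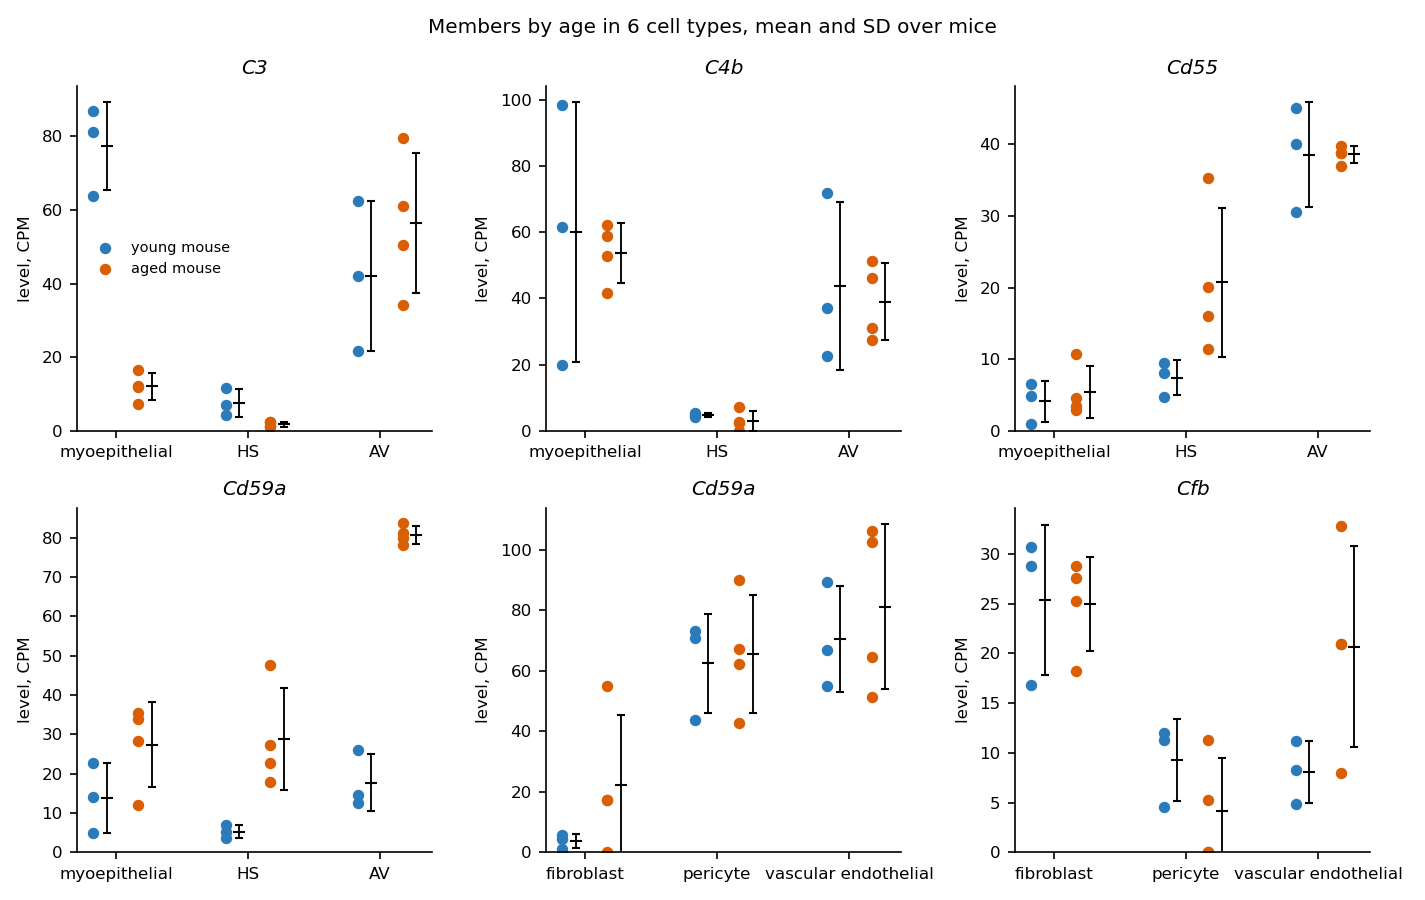
Mean CPM of C3, C4b, Cd55 and Cd59a in myoepithelial, HS and AV cells (upper panels and first lower panel) and of Cd59a and Cfb in fibroblasts, pericytes and vascular endothelial cells of 3 young and 4 aged mice. Bars are means over mice, points are single mice and whiskers are 1 SD, drawn only down to 0. Cd59a is higher in aged AV and HS cells, and C3 is lower in aged myoepithelial cells.

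In myoepithelial cells C3 was the member called, and it fell. It was at 86.9, 63.9 and 81.2 CPM in young mice A to C and at 16.5, 12.1, 12.3 and 7.42 CPM in aged mice A to D (log2 change -2.66 ± 0.27, adjusted p = 6.60e-06 by edgeR), without overlap. C4b (0.31 ± 0.38, adjusted p = 0.58) and Serping1 (-0.38 ± 0.29, 0.35) were not called, which left 1 of 4 members tested against 27.6% of 6740 genes. The count was 2 without young mouse B (C1qb added) and 2 without aged mouse D (Cd59a added). Fibroblast markers (Col1a1, Col1a2, Col3a1, Fn1 and Pdgfra) were lower by their means in aged myoepithelial cells in 5 of 5 cases, with a sum of 54.1 to 213 CPM in young and 4.56 to 27.6 CPM in aged mice and 0 of them at 0 in either group. For each 100 of these marker UMIs, myoepithelial cells held 49.4 C3 UMIs in young mice, and those of aged mice held 74 UMIs of each, while fibroblasts themselves held 11.1 and 15.97. Their part in the C3 difference was not tested.

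HS cells differed in Cd55 and Serping1 as well as in Cd59a. Cd55 was at 8.02, 4.78 and 9.48 CPM in young and 11.4, 16.1, 35.3 and 20.1 CPM in aged mice (log2 change 1.43 ± 0.38, adjusted p = 0.0487 by edgeR), and Serping1 at 20.4, 7.43 and 11.9 CPM in young and 5.69, 0.973, 0 and 4.73 CPM in aged mice (-2.16 ± 0.57, adjusted p = 0.0487). Neither pair of groups overlapped, and 3 of 3 members tested were called with 6.26% of 8457 genes called. Serping1 passed the filter on low counts mainly through young mice, and Cd55 and Cd59a mainly through aged mice. Members with low counts in both groups were not tested, so 3 of 3 cannot be set against that share. The Cd55 and Serping1 calls were near the threshold. They were lost without young mouse A (adjusted p = 0.12 and 0.15), young B (0.13 and 0.062), young C (0.10 and 0.13), aged B (0.060 and 0.10), aged C (0.10 and 0.088) or aged D (0.10 and 0.067), and Cd59a stayed called in each of these cases. Without aged mouse A Serping1 was at -2.78 and stayed called (adjusted p = 0.046 by edgeR). Fibroblast markers in HS cells summed to 11.1 to 86.4 CPM in young and 0 to 11.4 CPM in aged mice (5 of 5 with a lower mean), and Serping1 UMIs for each 100 of them numbered 21.7 in young HS cells against 19.3 in young and 40.6 in aged fibroblasts, and aged HS cells held 13 Serping1 and 26 marker UMIs in all. The part of these markers in the Serping1 difference was not tested.

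Vascular endothelial cells had higher Cfb and Cd55 and lower C3 in aged mice. Cfb was at 11.2, 4.90 and 8.25 CPM in young mice A to C and at 32.8, 21.0, 8.02 and 20.9 CPM in aged mice A to D, with 1 aged value among the young ones (log2 change 1.68 ± 0.42, adjusted p = 0.0088 by edgeR). Cd55 also overlapped (9.23, 12.5 and 22.0 CPM against 24.4, 35.6, 16.9 and 21.6 CPM, 1.26 ± 0.32, adjusted p = 0.010). C3 was low in all mice, at 9.72, 8.17 and 17.9 CPM in young and 3.18, 1.40, 0.891 and 2.54 CPM in aged mice (-2.05 ± 0.48, adjusted p = 0.0060), without overlap. The 3 members called were among 5 tested, with 26.7% of 7864 genes called. C3 passed the filter on low counts only through young mice, so this count depends in part on the filter. Leaving out young mouse B ended the call of Cfb (1.37, adjusted p = 0.053) and leaving out young mouse A that of Cd55 (0.95, adjusted p = 0.072). Fibroblast markers in these cells summed to 44.1 to 159 CPM in young and 11.7 to 33.9 CPM in aged mice (5 of 5 with a lower mean, 0 of them at 0), and C3 UMIs for each 100 of them numbered 10.8 in young and 8.20 in aged mice, against 11.1 and 15.97 in fibroblasts. Their part in the C3 difference was not tested.

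In fibroblasts, none of the 6 members tested was called by edgeR (3.17% of 5513 genes called). C3 (-0.50 ± 0.32, adjusted p = 0.42), C4b (-0.16 ± 0.42, 0.89), Cfb (0.22 ± 0.36, 0.80), Cd55 (-0.30 ± 0.33, 0.68) and Serping1 (0.17 ± 0.22, 0.73) had overlapping values. Cd59a was at 5.61, 1.15 and 4.45 CPM in young and 17.2, 17.3, 0 and 54.9 CPM in aged mice (2.36 ± 0.65, adjusted p = 0.069), the 1 member with an unadjusted p under 0.05 and the 1 that DESeq2 called. AV markers in fibroblasts summed to 224 to 608 CPM in young and 355 to 2011 CPM in aged mice, with 5 of 6 not lower in aged mice and 0 of them at 0, and their part was not tested. Aged mice A to D had 121, 41, 15 and 17 fibroblasts. In pericytes 0 of 2 members tested were called, 0 had an unadjusted p under 0.05 and DESeq2 called 0 (11.8% of 2601 genes called), with Serping1 at 0.04 ± 0.24. In T and B cells 0 members passed the filter on low counts (0.656% of 457 genes called by edgeR), so none was tested and DESeq2 called 0.

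**Figure D4:**
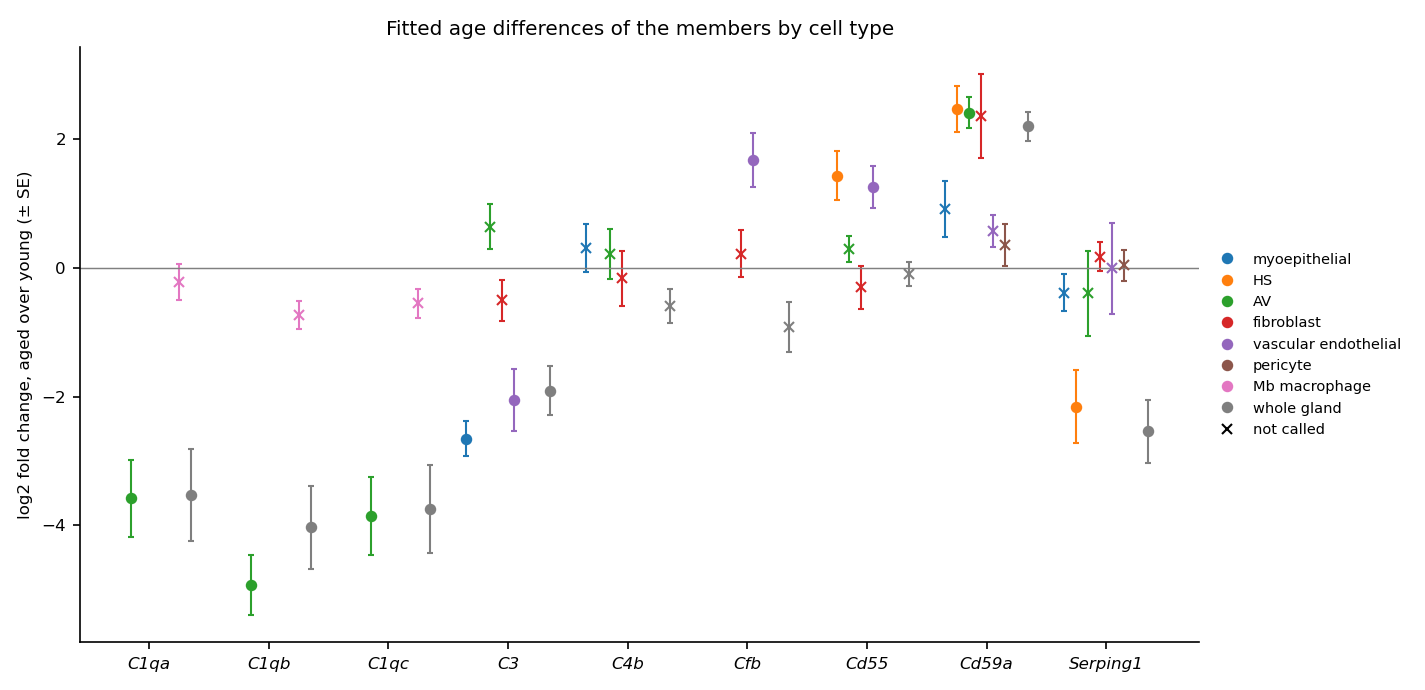
Log2 fold change of aged over young mice (points with bars of 1 SE) for each member that passed the filter in a cell type, from edgeR. Filled circles mark called members and crosses the others. Cd59a is positive in every type shown, and C3 is negative in myoepithelial and vascular endothelial cells and slightly positive in AV cells.

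The age difference of C3 itself differed between epithelial types. In AV cells C3 was at 62.3, 21.6 and 42.1 CPM in young and 79.6, 34.3, 50.6 and 61.2 CPM in aged mice (log2 change 0.64 ± 0.35, adjusted p = 0.30), overlapping values that contrast with the fall in myoepithelial cells. The interaction of age and cell type was 3.00 ± 0.37 on the log2 scale for AV against myoepithelial cells (adjusted p = 7.02e-05 by edgeR) and 2.77 ± 0.49 for AV against HS cells (0.0037). HS cells had 6.92, 4.24 and 11.6 CPM of C3 in young and 2.44, 0.973, 1.36 and 2.37 CPM in aged mice, and too few UMIs to be tested alone. Fibroblast markers summed to 11.1 to 86.4 CPM in young and 0 to 11.4 CPM in aged HS cells, and to 32.4 to 184 and 2.45 to 6.75 CPM in AV cells. For each 100 of them young HS cells held 14.9 C3 UMIs and young AV cells 33.1, against 11.1 in young fibroblasts. Aged AV cells held 1579 C3 and 110 marker UMIs, and aged HS cells 8 and 26. The part of these markers in the interactions was not tested. In these tests 1 of 8 members was called for AV against myoepithelial cells (9.25% of 9434 genes) and 1 of 7 for AV against HS cells (2.41% of 9838 genes), the latter 0 without young mouse C and 2 without aged mouse A (Serping1 added). The age differences of Cd59a in AV cells and in myoepithelial cells were not shown to differ (1.25 ± 0.52, adjusted p = 0.13), nor those in AV and HS cells (0.06 ± 0.40, 0.98). Between fibroblasts and vascular endothelial cells, the age differences of Cfb (-1.80 ± 0.49, adjusted p = 0.031) and Cd55 (-1.57 ± 0.45, 0.041) differed, 2 of 8 members tested with 5.62% of 8599 genes called, but neither without aged mouse A, Cfb alone without aged mouse B, and 0 members by DESeq2.

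The same genes were divided differently among cell types in young and aged glands. Epithelial cells carried 5.56% ± 3.11 (SD, n = 3) of the C3 UMIs of young mice and 74.8% ± 15.1 (SD, n = 4) of those of aged mice, where epithelial cells were also 78.3% to 85.0% of all cells, against 40.5% to 50.1% in young mice. For C4b the shares were 12.1% ± 2.07 and 82.9% ± 20.4, for Cd55 18.5% ± 1.13 and 83.8% ± 4.96 and for Cd59a 29.2% ± 15.3 and 84.9% ± 1.96. Serping1 stayed largely stromal, with 2.33% ± 1.19 and 27.0% ± 16.6 in epithelium. By an exact two-sided permutation test over 35 divisions of the mice, p was 0.029 for C3, Cd55 and Cd59a, the smallest possible, and 0.057 for C4b, Cfb and Serping1, and after adjustment over 9 members 0 differed (smallest adjusted p = 0.086).

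**Figure D5:**
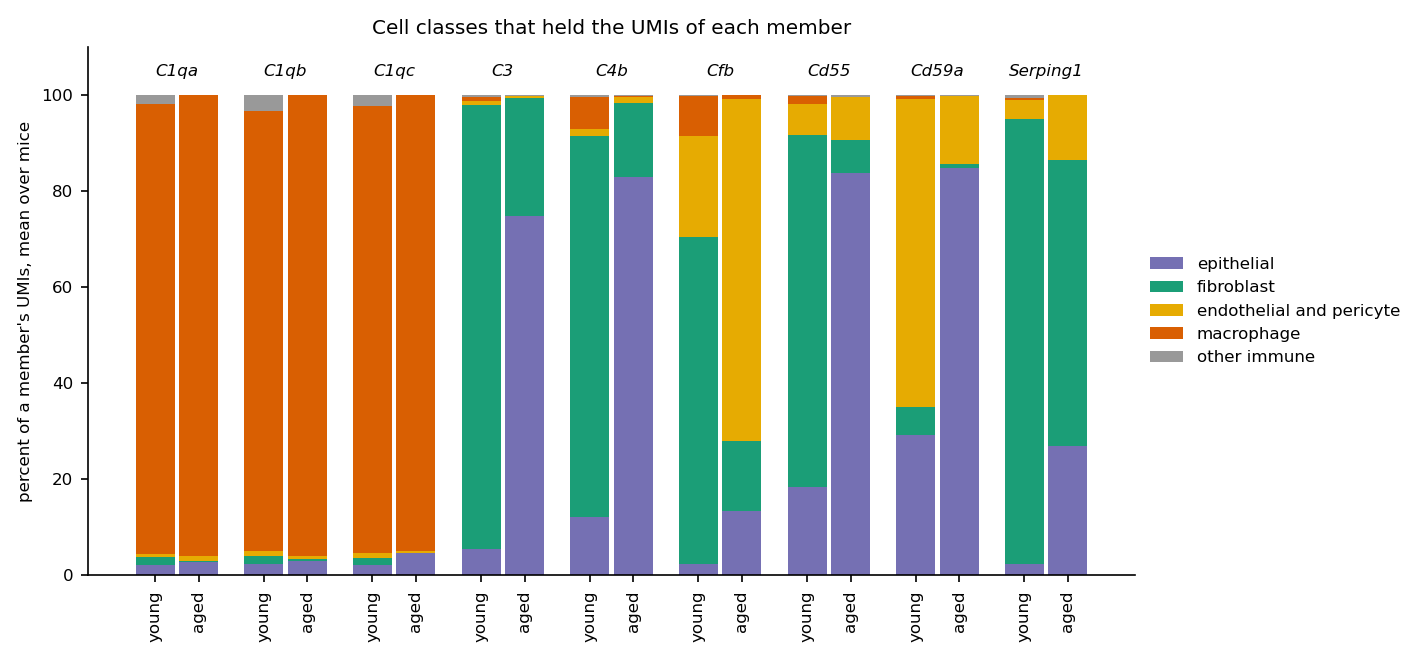
Percent of each member's UMIs (vertical axis) found in epithelial cells, fibroblasts, vascular cells, macrophages and other cells, as the mean over young mice (left bar of a pair) and aged mice (right bar). C3, C4b, Cd55 and Serping1 are mostly in fibroblasts in young mice, C3, C4b, Cd55 and Cd59a mostly in epithelium in aged mice, and the C1q chains in macrophages at both ages.

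By single type, fibroblasts held 92.4% ± 3.73 of C3 UMIs in young mice and 24.5% ± 15.0 in aged mice, in which AV cells held 71.0% ± 13.9. Fibroblasts held 68.1% ± 15.1 of the Cfb UMIs of young mice, and vascular endothelial cells held 67.2% ± 13.9 of those of aged mice. Mb macrophages held at least 88.0% of the UMIs of each C1q chain in every aged mouse.

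Fibroblasts with a Dpp4 or Pi16 UMI, markers of an adventitial type of fibroblast, were compared with the other fibroblasts of the same 5 mice. They had more Cd55, at a mean of 179 CPM against 21.1 CPM after scaling (log2 difference 3.11 ± 0.22, adjusted p = 9.90e-08 by edgeR), without overlap. C3 was also higher (1.38 ± 0.25, adjusted p = 7.84e-04, 5 of 5 mice), Cfb was higher in 4 of 5 mice (0.85 ± 0.29, 0.0486), and Serping1 differed by less than 1.5-fold (0.48 ± 0.14, 0.023). C4b was not called (0.19 ± 0.21, adjusted p = 0.61), which gave 3 of 5 members tested against 17.2% of 4731 genes. Deeper cells are more likely to show a UMI of either marker, so the sides of this split can differ in depth. Runs with each cell thinned to 2000 UMIs covered 3 results, among them the number of members called in this split and in the AV split below. Each number stayed the same or within 1.5-fold. Whether the same members were called after thinning is not given here. In AV cells split by an Aldh1a3 UMI, a luminal progenitor marker, 0 of 5 members tested were called by edgeR or DESeq2 (0.881% of 7380 genes called), and C3, lower by 0.46 ± 0.12 (adjusted p = 0.0494) and the 1 member with an unadjusted p under 0.05, stayed under 1.5-fold.

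The wider complement list held 46 further genes, of which 45 had a row and C4a had none. Their highest levels were spread over the same cells: C1ra (262 ± 76.2 CPM) and C1s1 (355 ± 78.1 CPM), the proteases of C1, in fibroblasts, properdin (Cfp, 681 ± 220.3 CPM), ficolin A (Fcna, 622 ± 213 CPM) and the C3a receptor C3ar1 (234 ± 41.7 CPM) in Ma macrophages, the C5a receptor C5ar1 (575 ± 479 CPM) in Mb macrophages and clusterin (Clu, 1023 ± 200 CPM), an inhibitor of the terminal complex, in AV cells. The C5ar1 mean of Mb macrophages covers both ages, with 261 CPM in young and 811 CPM in aged mice. In Ma macrophages, from young mice only, C5ar1 averaged 457 CPM. Between the macrophage types of young mice C5ar1 was not called (log2 difference 0.69 for Ma over Mb, adjusted p = 0.084 by edgeR). Nor was C3ar1 (0.85, adjusted p = 0.18 by edgeR), which averaged 188 ± 102 CPM in Mb macrophages of both ages. Clu averaged 828 ± 1260 CPM in lymphatic endothelial cells (SD, n = 5). Fibroblasts exceeded vascular endothelial cells in 7 of 10 tested genes and fell below them in 3, with C2 at 6.20 and Cd93 at -5.37 on the log2 scale, and exceeded pericytes in 4 of 7 and fell below them in 2. AV cells differed from HS cells in 4 of 4 tested genes (2 higher, with Clu at 0.95, and 2 lower, with C2 at -3.36) and from myoepithelial cells in 3 of 3 (2 higher, with Clu at 3.90, and 1 lower, C1s1 at -4.12). Mb macrophages exceeded dendritic cells in C5ar1 (4.78, the 1 gene tested), and Ma exceeded Mb macrophages in Cfp (2.01) and in Fcna, with 0 UMIs in Mb macrophages. These counts stand beside high shares of all genes called. They were 44.3% and 44.1% for fibroblasts against vascular endothelial cells and pericytes, and 42.5% and 48.2% for AV against HS and myoepithelial cells.

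With age, 1 of the 4 tested genes of the wider list rose in myoepithelial cells (Clu, 1.20) and 2 fell (C1s1 -1.43 and Cr1l -0.85), 1 of 5 rose in HS cells (C2, 1.43) and 0 fell, and 0 of 11 rose and 4 fell in AV cells (among them C1s1 -3.65, Cd93 -3.47 and Cfd, with 0 UMIs in every aged mouse). The AV levels were low, with C1s1 at 5.77, 8.99 and 8.68 CPM in young mice A to C. C1s1 and Cfd passed the filter on low counts in AV cells only through young mice, so the count of falls depends on the filter. Fibroblast markers in AV cells summed to 32.4 to 184 CPM in young and 2.45 to 6.75 CPM in aged mice. All 5 had a lower mean in aged mice, and their part in these falls was not tested. In vascular endothelial cells 3 of 8 rose (Clu 2.89, C1ra 1.41 and C1rb, with 0 UMIs in every young mouse) and 2 fell (Cfd -7.31 and Cd93 -0.68), and in pericytes 0 of 5 rose and 1 fell (Cd93, -1.24). In fibroblasts 2 of 11 rose, C1rb (8.09) and C1s2, with 3 UMIs over all young mice, and 0 fell, and over the whole gland 5 of 25 rose and 16 fell. Of all genes tested with age, edgeR called 32.7% over the whole gland, 27.6% in myoepithelial and 26.7% in vascular endothelial cells. In pericytes, HS cells, AV cells and fibroblasts it called 11.8%, 6.26%, 6.16% and 3.17%. Of 2 genes tested in Mb macrophages edgeR called 0. C1rb was at 1.50, 0 and 0.809 CPM in young fibroblasts and 376, 259, 127 and 210 CPM in aged ones, an absence in 1 age group like that of the duplicate rows above, so these values cannot be told apart from library processing. Cfd was one of 11 genes at most at 0.5 CPM in every aged and at least at 5 CPM in every young mouse, 5 genes showed the reverse, and 0 of these were members. In the interaction tests 0 of 6 tested genes were higher and 2 lower for AV against HS cells, 1 of 8 higher and 1 lower for AV against myoepithelial cells and 0 of 13 higher and 3 lower for fibroblasts against vascular endothelial cells. Fibroblasts with a Dpp4 or Pi16 UMI had 0 of 8 higher and 4 lower, led by Vtn (-3.32), and the Aldh1a3 split of AV cells 0 of 2 by edgeR.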

How the data were processed

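Single-cell libraries, 1 per mouse, were made from mammary glands of 3 young and 4 aged mice, which the labels give as separate animals. The authors deposited UMI counts as a matrix of genes by cells, with no normalization, and a table with the mouse and the named cell type of each cell. Per the submitters' processing notes, reads were mapped to mm10 and counted with Cell Ranger 2.0, and per the study cells were filtered on UMIs, genes and mitochondrial UMIs, in part to take out potential doublets, and doublets were also estimated. None were removed here. The table of counts for all 13684 cells was used, and 0 of its value columns were left out. Totals of 6652599 to 16999625 UMIs per mouse set the precision. Limits from counts of 0 used 3 counts and cover counting error only.

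For each cell type the counts of a mouse were added up (at least 3 cells). After filterByExpr and TMM scaling, all genes were fitted with the quasi-likelihood test of edgeR 4.0.16 (R 4.3.3, limma 3.58.1). A gene could pass the filter through the samples of 1 group alone, so counts of members called depend on it. Calls needed at least 1.5-fold and p under 0.05 after Benjamini-Hochberg adjustment. Cell types were compared with the mouse as a block, fibroblasts and AV cells were split with at least 10 cells on each side per mouse, and single values by exact permutation tests. No age comparison was fitted for dendritic, NK, HS-AV, lymphatic endothelial or Ma cells, which had few cells in at least 1 age group. CPM in the text are not scaled by TMM, except the means of the fibroblast split. Shares of cells were repeated on cells thinned to 2000 UMIs (0 cells were shallower). Sums and plots used scipy 1.17.1, numpy 2.4.6, matplotlib 3.10.9 and pandas 2.3.3 in Python 3.11.15, and the fits were tested on simulated data. The same label letters in young and aged mice name different animals, and their deviations did not pair (r = -0.07, -0.11 and -0.13 for letters A, B and C over 16066 genes). Gene positions came from GENCODE vM21 on GRCm38 and start regions from RefSeq.

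All 9 members are named, with at most the 3 called genes of largest change in each direction from the wider complement list and the 3 genes most like each member, among genes of at least 10 CPM in a cell type. One result of the wider list is not reported here. The members and lists were chosen with earlier results of these data known. Alternatives were DESeq2 1.42.0, RLE factors, no filter on low counts, no fold minimum, fits without ribosomal protein and mitochondrial genes, thinned counts, a block of the label letters, a minimum of 10 cells or none, pseudocounts of 0.1 and 10 CPM in place of 1, the share of cells in place of UMIs, and each mouse left out. Fits without cells whose barcode occurs in another library, and the markers of other cell types counted beside a member, were chosen after seeing the data.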

Additional observations from a re-analysis of the deposited data

Results flagged for a closer look

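Among 40 groups of 4 aged mice tested for a value far from the others, 2 had one, and chance alone gives about 1 in 20 such groups. C1qa in AV cells of aged mouse A was 0.987 CPM, with a gap to the other aged mice of 0.93 of the range. C1qc over the whole gland of aged mouse A was 17.8 CPM (gap 0.86 of the range), and this mouse had the most macrophages of the aged mice, 10 cells. The age difference of C3 differed between cell types by the interaction tests of edgeR, by 2.77 on the log2 scale between AV and HS cells and by 3.00 between AV and myoepithelial cells. Those of Cfb (-1.80) and Cd55 (-1.57) differed between fibroblasts and vascular endothelial cells.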

How the results depend on the processing

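Among members called with age, no log2 change that could be refitted changed its direction under an alternative run. The other results were compared by the number of members called, so their direction was not followed. With no filter on low counts the number of members called with age became 7 in HS cells, 5 in fibroblasts, 5 in myoepithelial cells and 5 in vascular endothelial cells, that of fibroblasts against pericytes 8, of Ma against Mb macrophages 3, of the Dpp4 or Pi16 split 5, and of the interactions 2 (AV and HS cells) and 4 (fibroblasts and vascular endothelial cells). The share of all genes called without this filter is not given here, so these counts cannot be set against it. DESeq2 called 1 member with age in fibroblasts (Cd59a) and 0 in the interaction of fibroblasts and vascular endothelial cells, and without a fold minimum 1 (C3) was called in the Aldh1a3 split. After thinning to the lowest total, 1 member remained with age in AV cells (Cd59a), 1 in HS cells (Cd59a) and 1 in vascular endothelial cells (Cfb) (4708, 5807 and 6011 genes tested). Members under the filter on low counts after thinning, among them C1q in AV cells, were not tested there. Without cells of shared barcodes 1 member (Cd59a) was called in HS cells. With each mouse left out in turn the counts ranged from 2 to 4 with age in AV cells, 1 to 3 in HS cells, 1 to 2 in myoepithelial cells, 2 to 4 in vascular endothelial cells and 6 to 7 over the whole gland, from 2 to 4 for AV against myoepithelial cells, 1 to 2 for Ma against Mb macrophages, 4 to 5 for fibroblasts against pericytes, 5 to 6 against vascular endothelial cells and 2 to 3 in the Dpp4 or Pi16 split, and from 0 to 2 and 0 to 3 in the interactions of AV and HS cells and of fibroblasts and vascular endothelial cells. They stayed at 5 for AV against HS cells, 3 for Mb macrophages against dendritic cells, 1 in the interaction of AV and myoepithelial cells and 0 elsewhere. RLE factors moved the median of all genes by less than 0.1 on the log2 scale, but turned the higher share of called genes in the interaction of AV and myoepithelial cells from 37.1% to 48.5% (47.5% by DESeq2), and DESeq2 turned that with age in T and B cells from 33.3% to 57.1%. The causes were not tested.

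With the label letter as a replicate block, which the design does not support since letters name different animals, 1 member (Cd59a) was called with age in HS cells, where Cd55 (1.50, adjusted p = 0.078 by edgeR) and Serping1 (-2.45, 0.058) were lost, and 2 (C3 and Cd59a) in myoepithelial cells.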
